A study of Rattus norvegicus with 12 samples.

Results

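The linear transcripts described here are the mRNAs and other non-circular RNAs that a circRNA microarray also carries probes for, measured in the orbitofrontal cortex (OFC) of rats after the RNA had been digested with RNase R. The rule that chose them was set with earlier results of these data known, but it used only the design of the array. It took probes that are no array control, carry a name of the manufacturer's gene expression catalogue or of a custom set, and are spotted exactly 10 times. That gave 55 of 14200 features, 43 from the catalogue and 12 from the custom set, and the other 14145 were circRNA probes spotted once each. By their accessions 35 probes matched 34 gene symbols, since Ldha, the A subunit of lactate dehydrogenase, had 1 probe in each set. The other 20 are given by the identifier in the files, with no gene named.

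Each array held RNA from 1 adult male Sprague Dawley rat, 8 weeks old on arrival, and 3 rats formed each of 4 groups. The heroin and saline rats had a jugular vein catheter and self-administered heroin or saline in 10 daily sessions of 6 hours. The sucrose rats pressed for chocolate sucrose pellets in 10 daily sessions of 2 hours, and the naive rats were handled and placed in the chamber for 2 hours a day with no program running, both without surgery. All were killed straight after the last session. The comparisons therefore ask whether the signal left for each transcript differed with heroin, sucrose, or the surgery and procedure of the saline group.

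RNase R is an exonuclease that degrades linear RNA from its 3′ end and spares circles, which have no free end. Structured or tightly folded 3′ ends are known to slow it, so digestion need not remove every linear molecule. The OFC holds neurons, glia and vascular cells, and its neurons are rich in mRNAs for synaptic and dendritic proteins. No array of undigested RNA was analysed here, so a large amount before digestion and a poor digestion cannot be told apart. A probe also reads any RNA that holds its sequence, linear or circular, and these cannot be told apart either.

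The arrays were alike in the share of circRNA probes seen but differed in brightness. The median intensity of the circRNA probes lay between 70.1 and 141. It was 85.8 to 109 in heroin, 88.2 to 136 in saline, 124 to 141 in sucrose and 70.1 to 114 in naive. Of the circRNA probes, 95.7% to 98.6% were well above background, a flag that the scanner software sets for each spot. The naive 1 array was the dimmest, and no array stood apart in its correlation with the others, which ran from 0.949 to 0.983 over all features. All heroin and saline arrays and sucrose 1 and 2 lay on 1 slide, and sucrose 3 and the naive arrays lay on the other. With so few arrays in a group, 3, every value below has limited precision.

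Signal at the linear probes had not vanished. A transcript was counted as well above background on an array where at least 6 of its 10 spots carried the flag, and 35 of the 55 met this on all 12 arrays, 10 on some arrays and 10 on none. The count on a single array ran from 36 on naive 1 to 43 on saline 2 and sucrose 2. To place each transcript, its percentile was taken, the percentage of circRNA probes on the same array with a lower intensity. The median transcript lay at the 7.51 to 14.3 percentile depending on the array, with a mean over arrays of 10.5 ± 1.82 (SD, n = 12), so most linear probes were dimmer than most circRNA probes. A tail of 12 transcripts had a mean percentile above 50, and 3 had one above 95. The brightness of a spot also depends on how well its probe hybridizes, so this order is not an order of RNA amounts.

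**Figure D1:**
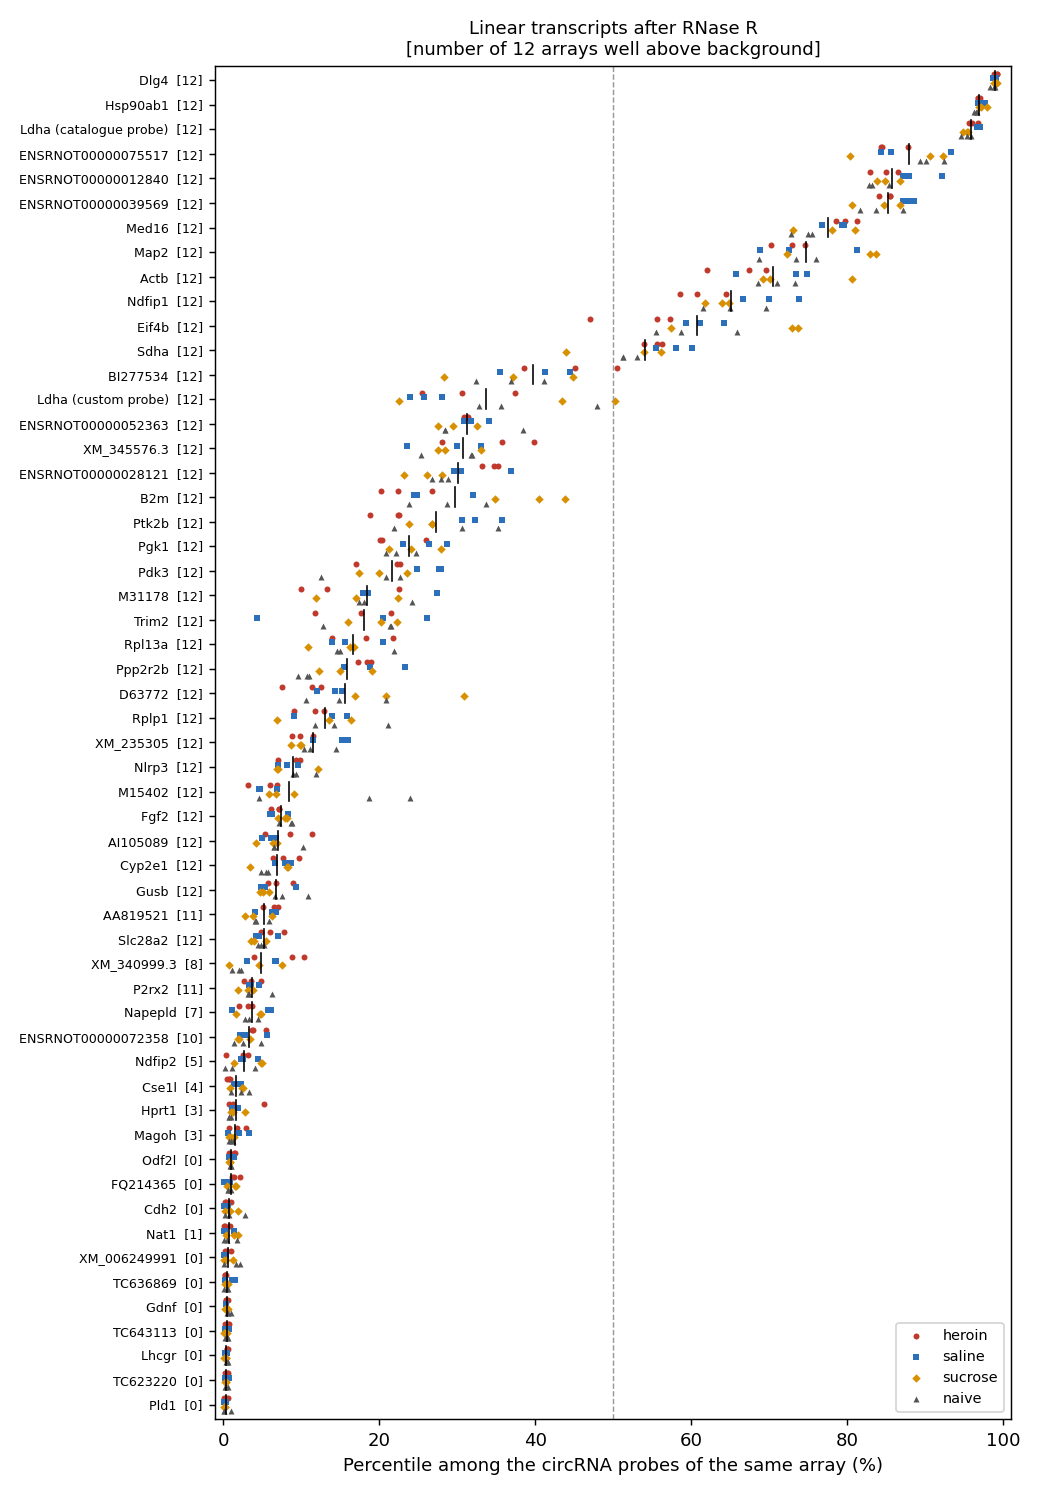
Percentile of each linear transcript among the circRNA probes of its own array (x axis, %), with 1 point per array coloured by group, a vertical bar at the mean of the 12 arrays and, in brackets, the number of arrays on which it was well above background. Dlg4, Hsp90ab1 and the catalogue probe of Ldha sit above 94 on every array, 12 transcripts have a mean beyond the dashed line at 50, and the lowest 11 lie at the left edge.

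Dlg4, which encodes PSD-95, the main scaffold protein of the postsynaptic density, was the brightest. Its percentile was 99.2, 99.1 and 98.8 on the heroin arrays, 99.1, 98.7 and 98.9 on the saline arrays, 99.1, 98.9 and 99.2 on the sucrose arrays, and 98.9, 98.3 and 98.9 on the naive arrays. The groups overlapped, and no array stood out. Its intensity was between 3052 and 6056. Map2, the dendritic microtubule-associated protein, was the other of the 2 neuronal markers carried by the array, out of 19 listed. Its percentile was 73.0, 70.3 and 74.6 in heroin, 72.6, 81.2 and 68.8 in saline, 72.2, 82.9 and 83.7 in sucrose, and 68.6, 73.4 and 76.0 in naive. Saline 2, sucrose 2 and sucrose 3 were the high arrays, and sucrose 1 and the other saline arrays were lower. No linear probe matched a listed marker of astrocytes, oligodendrocytes, microglia, endothelium or blood, so these probes do not check for other cells in the dissection.

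Hsp90ab1, the constitutive cytosolic chaperone Hsp90 beta, came next. Its percentile was 97.0, 96.8 and 96.7 in heroin, 97.6, 97.1 and 96.7 in saline, 96.9, 98.0 and 97.2 in sucrose, and 96.4, 96.6 and 96.2 in naive. All sucrose arrays lay above all naive arrays, within a narrow range. Actb, cytoplasmic beta-actin, was at 69.6, 62.0 and 67.4 in heroin, 74.9, 73.4 and 65.7 in saline, 70.1, 69.1 and 80.7 in sucrose, and 68.5, 71.0 and 73.2 in naive. Its lowest array was heroin 2 and its highest sucrose 3, and the groups overlapped. Sdha, the flavoprotein of succinate dehydrogenase, was at 56.3, 55.6 and 54.0 in heroin, 58.0, 55.5 and 60.1 in saline, 53.9, 56.1 and 43.9 in sucrose, and 51.3, 53.1 and 51.2 in naive. Sucrose 3 was the 1 array below the circRNA median.

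Of the 10 brightest, 3 have no gene named. ENSRNOT00000075517 was at 84.4, 87.7 and 84.4 in heroin, 93.3, 84.3 and 85.7 in saline, 80.3, 90.6 and 92.3 in sucrose, and 92.4, 90.1 and 89.3 in naive. It varied more than any neighbour in the order, and the spread lay within the saline and sucrose groups. ENSRNOT00000012840 was at 85.0, 82.9 and 86.5 in heroin, 87.1, 92.2 and 87.9 in saline, 84.8, 83.9 and 86.8 in sucrose, and 83.2, 85.3 and 82.8 in naive. Here all saline arrays lay above all other arrays. ENSRNOT00000039569 was at 85.5, 85.5 and 84.1 in heroin, 87.8, 87.1 and 88.6 in saline, 84.8, 86.7 and 80.6 in sucrose, and 83.6, 81.6 and 87.1 in naive. The saline arrays were again high, with naive 3 just under the lowest of them.

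Med16, a subunit of the Mediator complex of transcription, was at 79.7, 81.3 and 78.6 in heroin, 76.7, 79.3 and 79.6 in saline, 81.0, 78.1 and 73.1 in sucrose, and 72.8, 75.5 and 74.99 in naive. Sucrose 3 and the naive arrays, which shared a slide, were its 4 lowest. Ndfip1, an adaptor of Nedd4-family ubiquitin ligases, was at 60.7, 58.5 and 64.4 in heroin, 70.0, 73.8 and 66.7 in saline, 61.8, 63.9 and 64.8 in sucrose, and 65.0, 69.5 and 61.5 in naive. Every heroin array lay below every saline array. Below the 10 brightest, Eif4b, a cofactor of the translation initiation helicase, had a mean percentile of 60.7. Ndfip2, the paralogue of Ndfip1, had one of 2.66 and was well above background on 5 arrays.

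The genes usually taken as reference genes in qPCR were spread over the whole range. Of 22 on a list of such genes, 9 were on the array with 10 probes, and 9 of those 10 were well above background on all arrays. Their median percentile was 31.7. Beside Hsp90ab1, the catalogue probe of Ldha, Actb and Sdha, which were above the circRNA median on average, B2m, the light chain of MHC class I, had a mean percentile of 29.7, Pgk1, a kinase of glycolysis, 23.8, Rpl13a, a protein of the large ribosomal subunit, 16.6, and Gusb, lysosomal beta-glucuronidase, 6.84. Hprt1, of purine salvage, was at 1.60 and well above background on 3 arrays. Rplp1, another ribosomal protein, was at 13.1. The remaining lists held 1 or 2 genes each that have been described above (cytoskeleton, synapse, mitochondrial respiration, protein folding, glycolysis, ribosome) or none (ubiquitin and protein turnover, RNA processing, immediate early genes).

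Both Ldha probes are assigned to the same mRNA, yet their levels went different ways. The catalogue probe was at the 95.6, 96.0 and 96.7 percentile in heroin, 96.6, 96.8 and 97.0 in saline, 95.5, 95.4 and 94.8 in sucrose, and 95.3, 95.8 and 94.6 in naive. The custom probe was at 25.5, 37.4 and 30.6 in heroin, 25.8, 28.0 and 24.0 in saline, 22.6, 50.2 and 43.5 in sucrose, and 32.8, 35.7 and 48.0 in naive. The saline arrays were high for the catalogue probe and low for the custom probe, and naive 3 and sucrose 3 were the reverse. Over the 12 arrays the normalized levels of the probes had a Pearson r of -0.64 and a Spearman rho of -0.57, given as a description. The probe sequences were not used here, and whether the probes read different parts or products of the gene was not tested.

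Gusb kept nearly the same intensity whatever the array. It was 10.4, 11.1 and 11.2 in heroin, 11.3, 12.2 and 12.6 in saline, 12.8, 12.6 and 12.3 in sucrose, and 11.6, 12.4 and 12.5 in naive, while the circRNA median rose 2.01-fold from the dimmest to the brightest array. The coefficient of variation of its intensity was 6.42%, against 16.7% for the next lowest and a median of 28.6% among the 35 transcripts well above background on all arrays. Pgk1, in contrast, followed the array, from 23.6 on naive 1 to 62.0 on saline 2. After normalization Gusb was lowest, at 3.16 to 3.24 on the log2 scale, on the 3 arrays with the brightest circRNA probes, saline 2, sucrose 1 and sucrose 2.

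**Figure D2:**
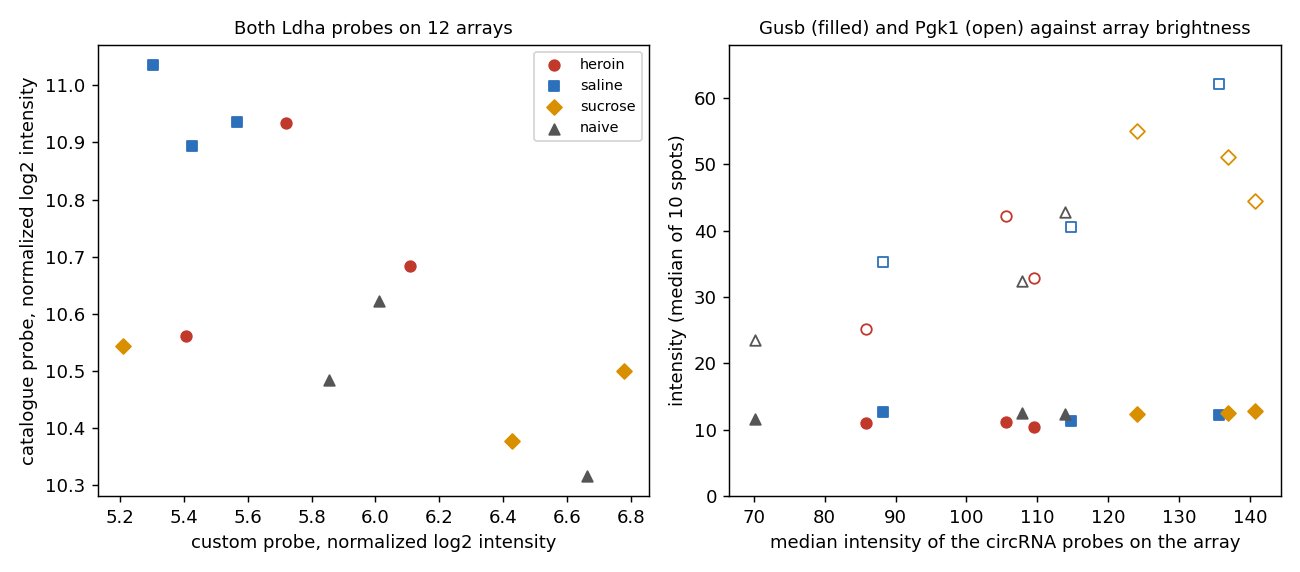
Left, normalized log2 intensity of the catalogue probe (y axis) against the custom probe (x axis) of Ldha, 1 point per array, with r = -0.64 over 12 arrays. Right, intensity of Gusb (filled) and Pgk1 (open) on each array against the median intensity of its circRNA probes, where Gusb stays between 10.4 and 12.8 and Pgk1 runs from 23.6 to 62.0.

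At the other end, 10 transcripts were well above background on no array, and their intensity never exceeded 5.49. They include Gdnf, a neurotrophic factor, Lhcgr, the luteinizing hormone receptor, Cdh2, N-cadherin, Pld1, a phospholipase D, and Odf2l, and the other 5 have no gene named. Nat1, an arylamine N-acetyltransferase, reached the flag on 1 array. These 11 were left out of the tests, which asked for at least 3 of 12 arrays. Between them and the bright tail lay 16 transcripts with a mean percentile from 10 to 50 and 16 tested transcripts with one under 10. Among the latter were Nlrp3, the inflammasome sensor, at a mean percentile of 8.96, Fgf2, a growth factor, at 7.43, Cyp2e1, a cytochrome P450 that oxidizes ethanol, at 6.94, P2rx2, an ATP-gated channel, at 3.69, Napepld, which forms N-acylethanolamines, at 3.66, Cse1l, which exports importin alpha from the nucleus, at 1.67, and Magoh, of the exon junction complex, at 1.48.

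The 10 spots of a transcript agreed far better than the rats of a group. For the 35 transcripts well above background everywhere, the SD over spots of 1 array had a median of 0.08 on the log2 scale (0.04 to 0.23), and the pooled SD between rats of a group, after normalization, had a median of 0.27 (0.13 to 0.72). The SD between rats was the larger in 34 of the 35, by a median of 3.02 times, and Fgf2 was the exception. ENSRNOT00000075517 had the largest ratio, 8.93, followed by Map2 at 8.19. The largest SD between rats, 0.72, was that of Trim2, a ubiquitin ligase expressed in neurons, whose intensity was 6.38 on saline 3 and 42.7 to 46.6 on the other saline arrays. With 1 array per rat, the rat cannot be told apart from the digestion, labelling and hybridization of its RNA.

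**Figure D3:**
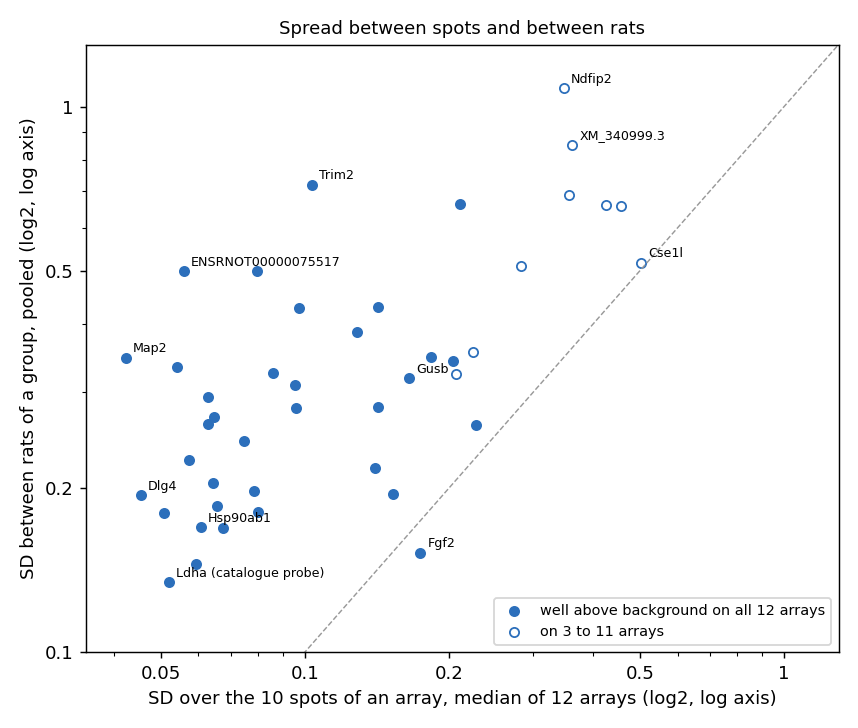
Pooled SD between the 3 rats of a group (y axis) against the SD over the 10 spots of an array, median of 12 arrays (x axis), both on the log2 scale with log axes, for the 44 transcripts tested. Nearly all points lie above the dashed line of equality, with Map2 and ENSRNOT00000075517 farthest from it among transcripts seen on all arrays, and Fgf2 below it.

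The transcripts did not vary together as a block. The median Pearson r of normalized level over all 595 pairs of the 35 was 0.01 over 12 arrays. Most like Dlg4 were Ndfip2 (r = 0.59, rho = 0.44), XM_345576.3 (r = 0.44, rho = 0.53) and B2m (r = 0.42, rho = 0.36). Ndfip2 was well above background on only 5 of the 12 arrays, so its correlation rests in part on values near the floor. Most like Map2 were Actb (r = 0.64, rho = 0.58), the custom probe of Ldha (r = 0.57, rho = 0.55) and D63772 (r = 0.56, rho = 0.29). These are the highest of 43 for each gene over the same 12 arrays, and they are descriptions.

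For the comparisons, log2 intensities were quantile-normalized over all features and fitted with limma as 4 group means, with Benjamini-Hochberg adjustment over the 14023 features tested, 44 of them linear transcripts. In bulk tissue, fewer cells that make a transcript and less of it per cell cannot be told apart. The values are signal left after RNase R, normalized over features that are mostly circRNA probes. A difference in transcript amount therefore cannot be told apart from one in digestion or one relative to the circRNA probes. Where the arrays of 2 groups are said not to overlap, above or below, the share of all features that separate likewise is not given. Such a lack of overlap describes the values only.

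Heroin against saline changed no linear transcript at an adjusted p below 0.05. The smallest adjusted p among them was 0.587, no feature of the array was called (0%), and 5 linear transcripts had an unadjusted p below 0.05, as did 6.74% of all features. The methods' t-test also called 0 after adjustment and gave 5 at the unadjusted level. Of the 44, 27 were lower and 17 (38.6%) higher in heroin, while 51.1% of all features were higher. The median log2 difference was -0.06 beside 0.01 over all features. The study threshold, a fold change above 1.5 with an unadjusted p below 0.05, was passed by 2 of 44 transcripts, both lower in heroin, and by 2.59% of all features.

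Ptk2b, a calcium-responsive tyrosine kinase of the focal adhesion kinase family, was the first of the pair. Its normalized log2 level was 5.20, 4.93 and 5.21 in heroin and 5.82, 5.73 and 6.02 in saline, so every heroin array lay below every saline array. The sucrose arrays, at 5.30, 5.49 and 5.49, lay between, and the naive arrays, at 5.99, 5.72 and 5.16, covered both. The difference was -0.74 ± 0.20 (SE), with a 95% interval of -1.17 to -0.31 (limma, unadjusted p = 0.00268, adjusted p = 0.587). All heroin arrays and saline 1 lay in the same row of the slide, and saline 2 and saline 3 lay in the other row. Group and row thus largely coincided. The heroin mean less saline 1 was -0.71, a value that rests on 1 saline array.

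Cse1l was at 0.67, 1.27 and 1.07 in heroin and 2.04, 2.32 and 1.72 in saline, again without overlap, and at 1.17, 2.41 and 2.35 in sucrose and 1.49, 2.73 and 2.32 in naive. Its adjusted p by limma was 0.732. It was well above background on no heroin array and on 1 saline array, and neither a difference nor a fold change is given because the saline mean lay under the lowest signal that counted as above background on the heroin arrays. The other 3 transcripts with an unadjusted p below 0.05 were also lower in heroin and under the 1.5-fold limit. They were Ndfip1, with a difference of -0.51 ± 0.17 (SE), ENSRNOT00000012840, with -0.49 ± 0.19 and -0.28 without saline 2, and XM_235305, with -0.46 ± 0.17.

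The 2 neuronal mRNAs were close in the heroin and saline arrays. Dlg4 was at 12.45, 12.35 and 12.04 in heroin and 12.27, 11.97 and 12.09 in saline, a difference of 0.17 with a 95% interval of -0.21 to 0.55 (limma, adjusted p = 0.871). Map2 was at 8.02, 7.85 and 8.12 in heroin and 7.99, 8.61 and 7.77 in saline, a difference of -0.12 with an interval of -0.68 to 0.43 (adjusted p = 0.942). The groups overlapped for both genes. Over the 44 transcripts the 95% interval reached a median of 0.51 to either side of the difference.

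**Figure D4:**
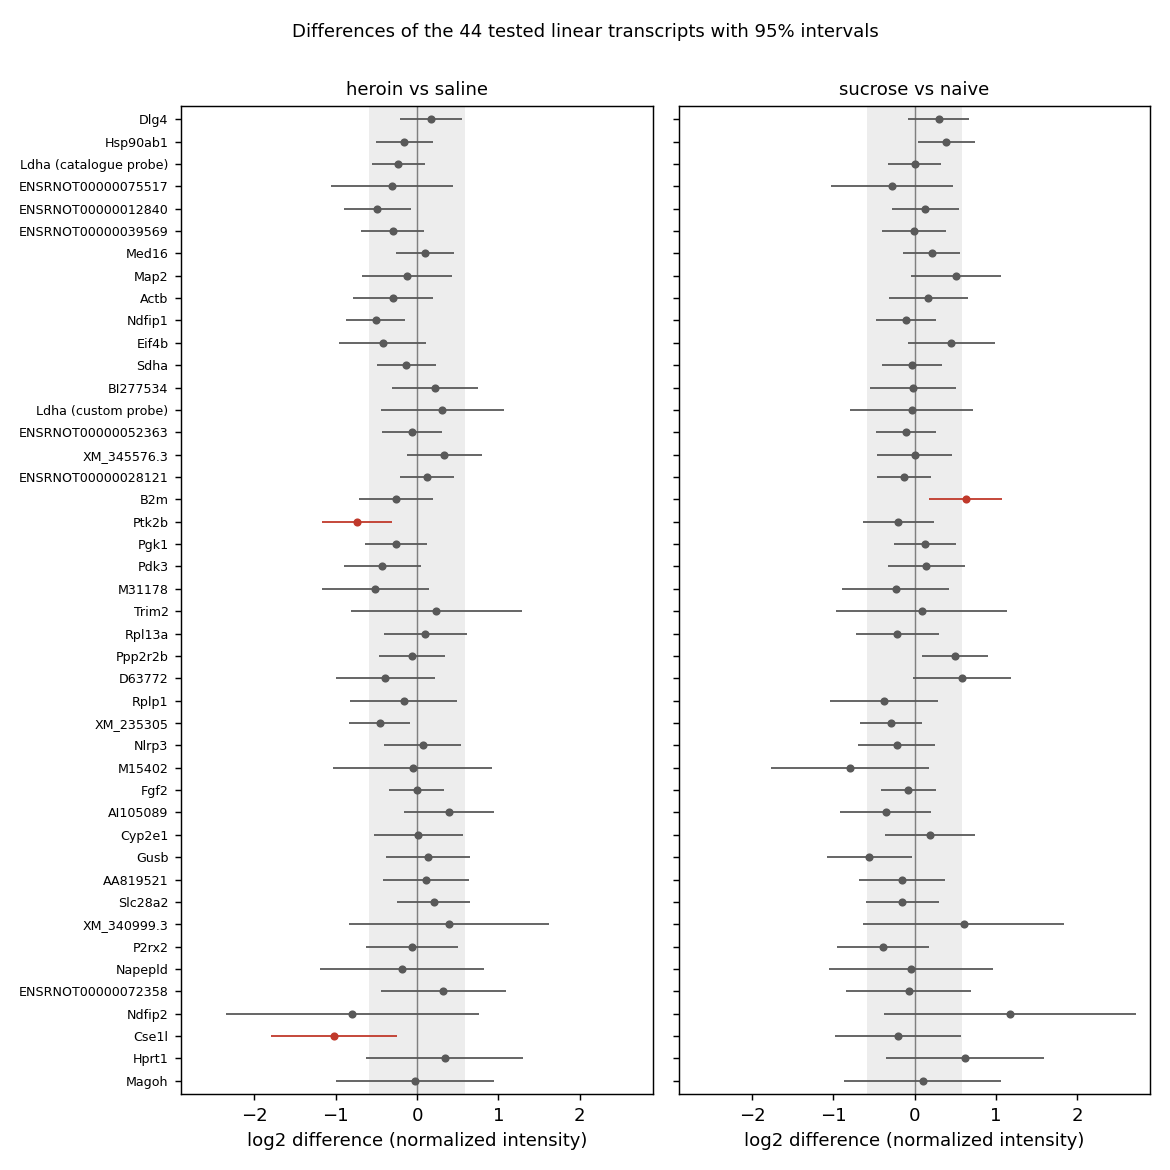
Log2 difference in normalized intensity (x axis) with its 95% interval from limma for each of the 44 tested transcripts, ordered by mean percentile, for heroin against saline (left) and sucrose against naive (right). The grey band spans a 1.5-fold change either way, and the red points, Ptk2b and Cse1l on the left and B2m on the right, passed the study threshold, none of them at an adjusted p below 0.05. The points of Cse1l (left) and of XM_340999.3, Ndfip2, Hprt1 and Magoh (right) involve a group with no array well above background and are not measured sizes.

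Sucrose against naive also changed no linear transcript after adjustment (smallest adjusted p 0.360, 0% of all features called). At an unadjusted p below 0.05 there were 4 by limma, beside 11.1% of all features, and 1 by the methods' t-test. The median log2 difference was -0.02, beside -0.01 over all features. B2m alone passed the study threshold, which 4.78% of all features passed. It was at 6.28, 5.97 and 6.45 in sucrose and 5.61, 5.29 and 5.91 in naive, so every sucrose array lay above every naive array, and also above the heroin arrays, at 5.49, 5.05 and 5.20, and the saline arrays, at 5.81, 5.36 and 5.34. The difference was 0.63 ± 0.21 (SE; limma, adjusted p = 0.360). Within the slide that held sucrose 3 and the naive arrays it was 0.84.

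The other 3 were under the 1.5-fold limit. Ppp2r2b, a neuronal regulatory subunit of protein phosphatase 2A, differed by 0.50 ± 0.19 (SE), and by 0.22 within the slide of sucrose 3 and the naive arrays. Hsp90ab1 differed by 0.39 ± 0.16, by 0.29 within that slide and by 0.24 without sucrose 2. Gusb differed by -0.56 ± 0.24, by -0.41 within that slide and by -0.37 without naive 1. The Gusb intensities of the sucrose arrays, 12.3 to 12.8, and of the naive arrays, 11.6 to 12.5, overlapped before normalization. Dlg4 differed by 0.30, with a 95% interval of -0.08 to 0.67, and Map2 by 0.51, with an interval of -0.05 to 1.06.

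**Figure D5:**
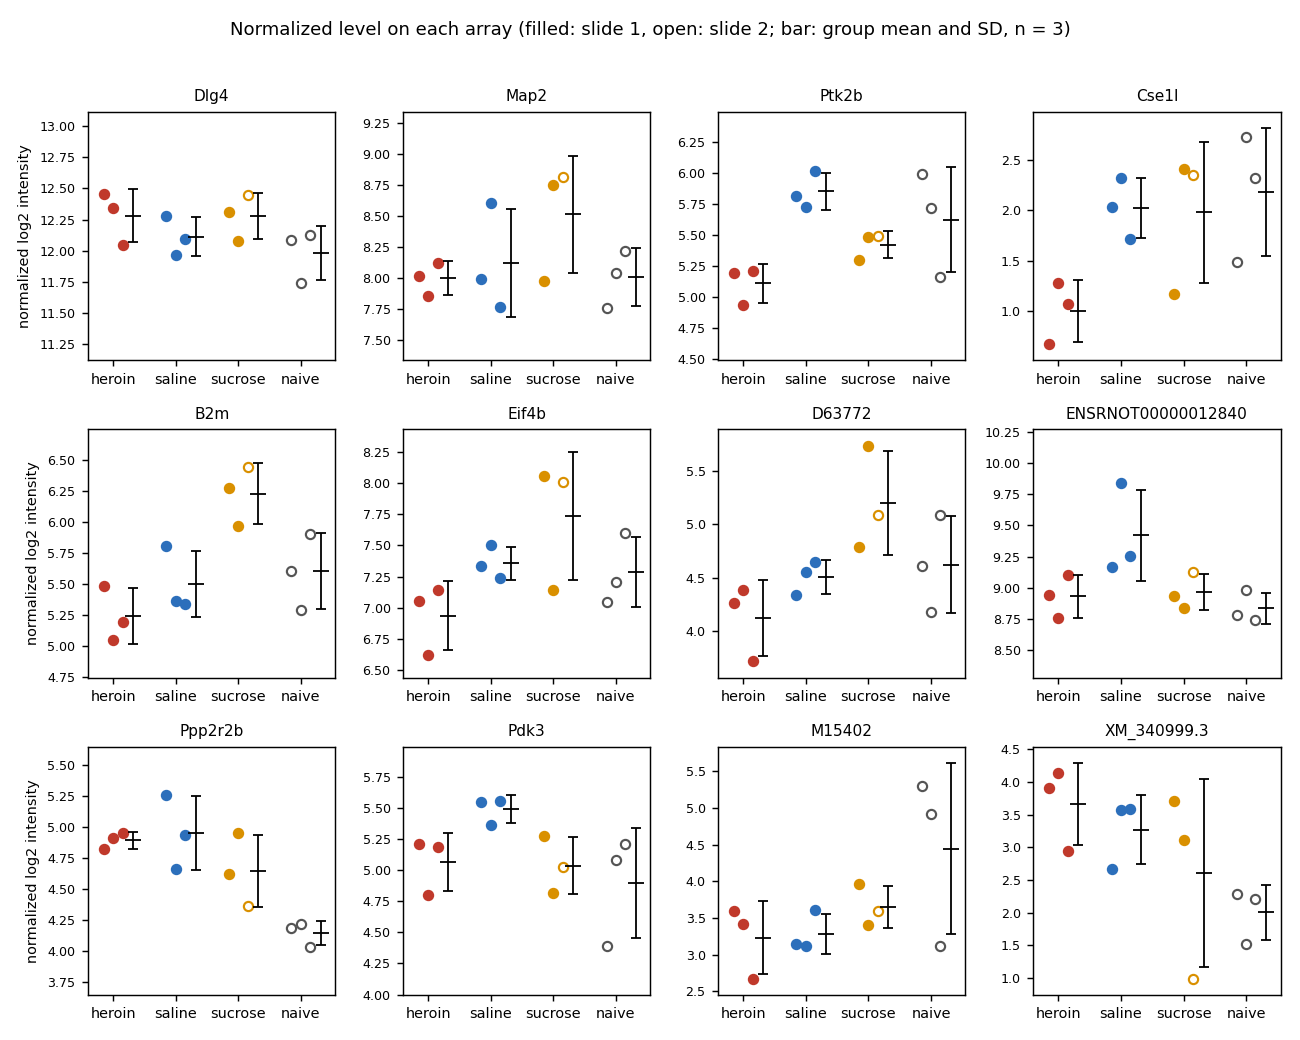
Normalized log2 intensity (y axis, each panel with its own range) on each array by group for Dlg4, Map2 and the 10 transcripts past the study threshold in any comparison, with the mean and SD of 3 rats beside the points. Filled points are arrays of the first slide and open points those of the second, on which XM_340999.3 and Ppp2r2b were lowest.

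Saline against naive sets 2 groups apart that received neither reinforcer, but the saline arrays all lay on 1 slide and the naive arrays on the other, so group and slide cannot be told apart directly. No linear transcript was changed after adjustment (smallest adjusted p 0.101, 0% of all features called). At an unadjusted p below 0.05 there were 6 by limma, beside 16.8% of all features, and 7 by the methods' t-test, which called 0 after adjustment. The median log2 difference was 0.12, beside -0.01 over all features. Of the 44, 28 (63.6%) were higher in saline, beside 48.9% of all features. The study threshold was passed by 5 transcripts, 4 of them higher in saline, and by 7.31% of all features.

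Ppp2r2b had the smallest p. It was at 5.26, 4.66 and 4.93 in saline and 4.19, 4.22 and 4.04 in naive, with no overlap, and at 4.82, 4.91 and 4.95 in heroin and 4.62, 4.95 and 4.37 in sucrose. The difference was 0.80 ± 0.19 (SE; limma, adjusted p = 0.101), and 0.38 with the slide as a block (adjusted p = 0.913). Leaving out sucrose 3 brought its adjusted p to 0.0476, with the same difference of 0.80, and this was the only call of a linear transcript in any alternative. Pdk3, which inhibits pyruvate dehydrogenase, was at 5.55, 5.37 and 5.56 in saline and 4.39, 5.08 and 5.21 in naive, a difference of 0.60 ± 0.22, and 0.34 without naive 1. ENSRNOT00000012840 was at 9.17, 9.84 and 9.26 in saline and 8.78, 8.98 and 8.74 in naive, a difference of 0.59 ± 0.19, with 0.38 when saline 2 was left out and 0.83 with the slide as a block.

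XM_340999.3 followed the slide. Its intensity was 7.27 to 17.4 on the 8 arrays of the first slide and 2.55 to 4.21 on the 4 of the second, sucrose 3 included, with no overlap. Its normalized level was 2.66, 3.57 and 3.58 in saline and 2.28, 1.52 and 2.20 in naive, where it was well above background on no array. The saline mean was 1.79-fold above the floor set for the naive arrays. That is a bound on the group means that carries no sampling error, and the fit did not call the transcript (limma, adjusted p = 0.287). With the slide as a block the fitted direction turned, a fit in which sucrose 3 is the one sucrose array on the second slide and was itself not well above background. M15402 was the 1 transcript lower in saline, at 3.14, 3.11 and 3.60 against 5.30, 4.92 and 3.12 in naive. The groups overlapped, since naive 3 was as low as saline, and the difference was -1.16 ± 0.45 (SE; limma, adjusted p = 0.239), with -0.73 when naive 1 was left out and -1.82 when naive 3 was.

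Across the slides, 5 of the 44 transcripts had normalized levels that did not overlap between the 8 arrays of the first and the 4 of the second. The same lack of overlap held for 1045 of all features tested (7.45%). The 5 transcripts were XM_340999.3, Cyp2e1, Ppp2r2b, Med16 and Sdha. Each was lower on the second slide, as were 723 of the 1045 features. The catalogue probe of Ldha differed between saline and naive by 0.48 (95% interval 0.16 to 0.80; limma, adjusted p = 0.166), while the custom probe of the same mRNA differed by -0.74 (-1.50 to 0.01; adjusted p = 0.303).

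The difference between the heroin effect and the sucrose effect was tested as a contrast of its own, heroin less saline minus sucrose less naive. No linear transcript passed after adjustment (smallest adjusted p 0.450, 0% of all features called), 5 had an unadjusted p below 0.05 by limma, beside 8.74% of all features, and 3 by the methods' t-test, and the t-test called 0 after adjustment. The study threshold was passed by 4 transcripts, all with a more negative heroin effect, and by 7.10% of all features. For B2m the contrast was -0.88 ± 0.30 (SE; adjusted p = 0.450), made of -0.26 for heroin and 0.63 for sucrose. For D63772 it was -0.97 ± 0.39. Its level was 4.26, 4.38 and 3.71 in heroin, 4.33, 4.55 and 4.64 in saline, 4.79, 5.74 and 5.09 in sucrose, and 4.60, 4.17 and 5.08 in naive, and both pairs of groups overlapped.

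For Eif4b the contrast was -0.88 ± 0.35 (SE; limma, adjusted p = 0.504). Its level was 7.05, 6.62 and 7.14 in heroin and 7.33, 7.50 and 7.24 in saline, with no overlap, and 8.06, 7.14 and 8.01 in sucrose and 7.05, 7.21 and 7.60 in naive, with overlap through sucrose 2. For ENSRNOT00000012840 the contrast was -0.62 ± 0.27, and -0.41 without saline 2, with the heroin levels of 8.94, 8.75 and 9.10 all below saline and the sucrose levels of 8.93, 8.84 and 9.13 across the naive range. The same fit asked whether a transcript differed anywhere among the 4 groups. It called 5 features of the array (0.0357%), none of them a linear transcript, while 10 linear transcripts had an unadjusted p below 0.05, beside 15.7% of all features, led by B2m (adjusted p = 0.190) and Ppp2r2b (adjusted p = 0.193).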

How the data were processed

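Total RNA of each OFC was digested with RNase R, converted into Cy3-labelled cRNA by random priming and put on 1-colour arrays, 1 rat each. Scanner files of 12 arrays were deposited (Agilent Feature Extraction 11.0.1.1), whose background-subtracted spot intensity was used here together with the median signal, the local background and the deposited well-above-background and outlier flags, which are yes or no scores per spot. The authors' table of normalized values holds circRNAs only and was not used. The value of a linear transcript was the median intensity of its 10 spots, set to log2, with 317 of 6600 linear spots flagged as outliers and kept, and no spot saturated. Values were quantile-normalized over 14200 features, and features well above background on at least 3 arrays were tested with limma 3.58.1 (R 4.3.3), which was also tested on simulated data. Names came from accessions in a RefSeq table. Groups came from sample titles. The members, lists and tests were chosen with earlier results of these data known. Values are named in every array for the 10 transcripts of highest mean percentile, Dlg4, Map2, Hsp90ab1, Ldha, Actb, Sdha and those past the study threshold. Trim2, Gusb, Pgk1 and the transcripts low on the second slide were chosen after their values were seen. Alternatives were other background corrections, scalings, spot summaries, filters, tests, blocks and each replicate left out. Probes of other names were not used: 7 with 10 spots and 20 with 20.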

Additional observations from a re-analysis of the deposited data

How the results depend on the processing

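No linear transcript reached an adjusted p below 0.05 in any of the 5 comparisons under those of the 26 alternatives run for it, apart from Ppp2r2b in saline against naive without sucrose 3, so the count there was 0 to 1 with an array left out. Transcripts well above background on all arrays numbered 38 where 1 of 10 spots was enough and 33 where all 10 were needed. The mean of the median percentiles was 10.2 to 10.8 with an array left out, and 26.5 over the transcripts well above background on all arrays, a choice that removes dim ones.

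Counts past the study threshold, 2 for heroin (against saline), 1 for sucrose, 5 for saline (each against naive) and 4 for the heroin effect less the sucrose effect, moved more. In that order they were 0, 0, 0 and 2 with normexp, 0, 0, 2 and 4 with no background subtraction, 2, 3, 4 and 8 with 75th percentile scaling, 2, 0, 3 and 2 with the methods' t-test, 2, 4, 2 and 6 with the slide as a block, and 6, 4, 3 and 7 with the slide row as a block. The first was 4 with no filter, 1 with the strictest filter and 1 with an intensity trend, and the second was 2 with the mean of spots. The cause of these moves was not tested. With an array left out they ran from 1 to 5 (1 without heroin 1 or saline 2, 4 without saline 1 or saline 3, 5 without heroin 3), from 1 to 5 (2 without naive 1 or sucrose 2, 3 without sucrose 1 or sucrose 3, 5 without naive 3), from 3 to 6 (3 without saline 1, saline 2 or any naive array) and from 2 to 6 (2 without heroin 2 or saline 2, 6 without sucrose 1). The fitted value of XM_340999.3 in saline against naive, which has only a bound, turned to -1.16 with the slide and -0.85 with the slide row as a block, both through the single array sucrose 3, and no other difference past the study threshold changed sign.

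Replicate numbers are shared by the groups, and the labels do not say whether they pair rats. Deviations of same-numbered arrays of different groups correlated at -0.27 to 0.33, with a median of -0.11. Those of differently numbered arrays correlated at -0.34 to 0.31, with a median of 0.04. Of the 12 arrays, 3 correlated best with their own number. These values cannot settle whether rats were paired. With a replicate block the counts were 2, 1, 6 and 4. Signal over background limits the transcripts near the floor, such as Cse1l and Hprt1, and 11 could not be tested.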
